A study of Mus musculus with 6 samples.

Results

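The genes described here are 10 regulators and surface proteins of hematopoietic stem and progenitor cells, namely Kit, Cd34, Runx1, Gata2, Meis1, Hoxa9, Flt3, Mecom, Hlf and Procr. All probe sets annotated to 1 of these genes alone were taken, which gave 23 of the 45037 probe sets tested and 10 of the 18193 genes with a probe set. The samples were 3 mouse hearts labelled Sp3 knockout and 3 labelled wildtype, all given as E12.5 (days of embryonic development), with the total RNA of each single heart on 1 oligonucleotide array. Sp3 is a zinc finger factor that binds GC-rich promoter elements. The labels give neither the strain nor the Sp3 allele, and no other treatment or genotype. Arrays are called knockout a, b and c and wildtype a, b and c after the sample titles, levels are log2 of the deposited intensity, and 3 values given for a group are in the order a, b, c.

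Hematopoietic stem cells arise from hemogenic endothelium of the embryo, move to the fetal liver and multiply there before they settle in the bone marrow. Their identity is held by a network of transcription factors, and receptor tyrosine kinases on their surface pass survival and growth signals from neighbouring cells. Several of these genes are also used outside blood, in endothelium, mast cells, melanoblasts or mesenchyme, so a level in whole tissue is the sum over its cells. In such bulk RNA, fewer cells of a type and less RNA per cell cannot be told apart.

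The heart label did not match the most abundant transcripts. Of 12 heart muscle genes, 10 were under the 50th percentile over all genes, while 9 measured liver cell genes had their median at the 99.5th percentile and 8 measured erythroid genes theirs at the 97.9th. The tissue is therefore called by its label only. The single Sp3 probe set read 8.39, 8.34 and 8.61 in the knockout arrays, against 9.87, 9.77 and 9.54 in the wildtype arrays, a log2 difference of -1.27 with limma adjusted p = 0.00254. It no longer passed without knockout a, at limma adjusted p = 0.0665, or with both the trend and robust estimation dropped, at 0.279. Whether its probes lie in a part of Sp3 changed by the knockout allele is not known from the labels. Array medians of intensity lay between 22.5 and 26.7, and precision is limited by the number of arrays.

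Promoter windows are shown because Sp3 binds GC boxes, and 5 of the 10 genes are shown, Kit, Gata2 and Hlf with a match and Flt3 and Runx1 without one. Each window runs from 250 bases before to 50 bases after an annotated start (RefSeq, GRCm38.p6), 5′ to 3′ on the gene's strand, and capitals mark each GC box, searched as GGGCGG and its reverse complement CCGCCC. The Kit window is chr5:75574737-75575036 on the plus strand, the Gata2 window chr6:88198414-88198713 on the plus strand and the Hlf window chr11:90390868-90391167 on the minus strand. The Flt3 window is chr5:147400440-147400739 on the minus strand. Runx1 has an upstream start, in chr16:92826025-92826324, and a downstream start, in chr16:92697280-92697579, both on the minus strand.
Kit: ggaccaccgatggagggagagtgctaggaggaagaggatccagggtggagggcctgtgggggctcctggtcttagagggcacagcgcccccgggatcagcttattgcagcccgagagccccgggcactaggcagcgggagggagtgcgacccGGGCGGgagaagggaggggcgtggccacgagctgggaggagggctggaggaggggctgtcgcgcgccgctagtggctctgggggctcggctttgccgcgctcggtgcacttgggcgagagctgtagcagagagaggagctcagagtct
Gata2: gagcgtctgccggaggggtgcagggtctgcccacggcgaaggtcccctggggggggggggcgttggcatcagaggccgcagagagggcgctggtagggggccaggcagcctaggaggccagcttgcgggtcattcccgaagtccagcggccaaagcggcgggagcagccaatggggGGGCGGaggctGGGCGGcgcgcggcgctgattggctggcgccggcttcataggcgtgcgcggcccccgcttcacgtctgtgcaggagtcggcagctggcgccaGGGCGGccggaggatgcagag
Hlf: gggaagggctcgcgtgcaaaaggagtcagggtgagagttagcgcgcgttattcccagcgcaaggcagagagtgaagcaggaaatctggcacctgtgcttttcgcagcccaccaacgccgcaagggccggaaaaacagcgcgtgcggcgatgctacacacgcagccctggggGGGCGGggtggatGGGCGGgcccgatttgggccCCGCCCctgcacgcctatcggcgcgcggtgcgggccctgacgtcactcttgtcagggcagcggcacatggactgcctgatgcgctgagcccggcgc
Flt3: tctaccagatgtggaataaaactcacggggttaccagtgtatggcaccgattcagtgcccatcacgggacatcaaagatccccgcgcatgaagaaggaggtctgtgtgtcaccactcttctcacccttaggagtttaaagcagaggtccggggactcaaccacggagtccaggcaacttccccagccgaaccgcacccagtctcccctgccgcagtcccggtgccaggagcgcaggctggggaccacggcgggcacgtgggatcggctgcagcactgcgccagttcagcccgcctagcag
Runx1 upstream start: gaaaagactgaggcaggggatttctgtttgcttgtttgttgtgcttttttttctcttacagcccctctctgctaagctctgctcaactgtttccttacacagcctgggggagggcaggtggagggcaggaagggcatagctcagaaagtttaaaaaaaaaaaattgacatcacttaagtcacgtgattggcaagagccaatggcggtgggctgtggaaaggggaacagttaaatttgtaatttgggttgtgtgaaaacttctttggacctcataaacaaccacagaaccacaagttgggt
Runx1 downstream start: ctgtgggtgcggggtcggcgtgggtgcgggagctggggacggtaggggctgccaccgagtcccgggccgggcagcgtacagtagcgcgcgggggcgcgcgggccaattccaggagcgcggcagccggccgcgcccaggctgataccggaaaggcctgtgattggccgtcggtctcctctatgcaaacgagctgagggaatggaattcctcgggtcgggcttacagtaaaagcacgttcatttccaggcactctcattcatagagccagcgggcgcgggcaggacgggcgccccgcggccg

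A GC box stood in 7 of the 14 windows of the regulators, against 35.7% of 32851 windows of all genes, with 3 matches each in the Gata2 and Hlf windows shown and 1 in that of Kit. Both Kit windows overlap and hold the same match. The windows of Flt3 and Runx1 held none. Of the 5 genes with a GC box in at least 1 window, namely Kit, Gata2, Hoxa9, Mecom and Hlf, 3 were higher and 2 lower in knockout by the sign of the difference alone. Of the 5 without, namely Cd34, Runx1, Meis1, Flt3 and Procr, 2 were higher and 3 lower, and the signs of Hoxa9 and Runx1 turned with median centring. The 6-base sequence TGTGGT, read by RUNX factors, and its reverse complement ACCACA had 2 matches in the upstream Runx1 window and 1 in the Meis1 window, and stood in 16.8% of all windows. The GATA sequence AGATAA with its reverse complement TTATCT stood in none of the 14 windows and in 11.2% of all windows. These matches describe letters only.

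None of the 23 probe sets of the regulators passed the test of Sp3 knockout against wildtype. The test was limma, two-sided, with a prior variance that follows intensity and robust estimation, with Benjamini-Hochberg adjustment over all probe sets and a threshold of 0.05, which called 14 probe sets in all, or 0.0311% of those tested. Adjusted p for the regulators ran from 0.68 to 0.993. An unadjusted p under 0.05 was met by 1 of the 23, the Flt3 probe set on the low side, against 7.16% of all probe sets, 3.27% higher and 3.89% lower. The 3 knockout arrays lay wholly above or wholly below the 3 wildtype arrays at 5 probe sets, 2 above and 3 below, against 13% of all probe sets, 6.15% above and 6.89% below. Of the 23 differences 14 were positive and 9 negative, and 47.8% of all probe sets had a negative one. Over the 10 genes, each at its probe set of highest mean, 5 were higher and 5 lower (Hoxa9 and Runx1 turned lower with median centring), where 52.5% of all genes were lower, and the median log2 difference was -0.04, against -0.02 over all 18193 genes.

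**Figure D1:**
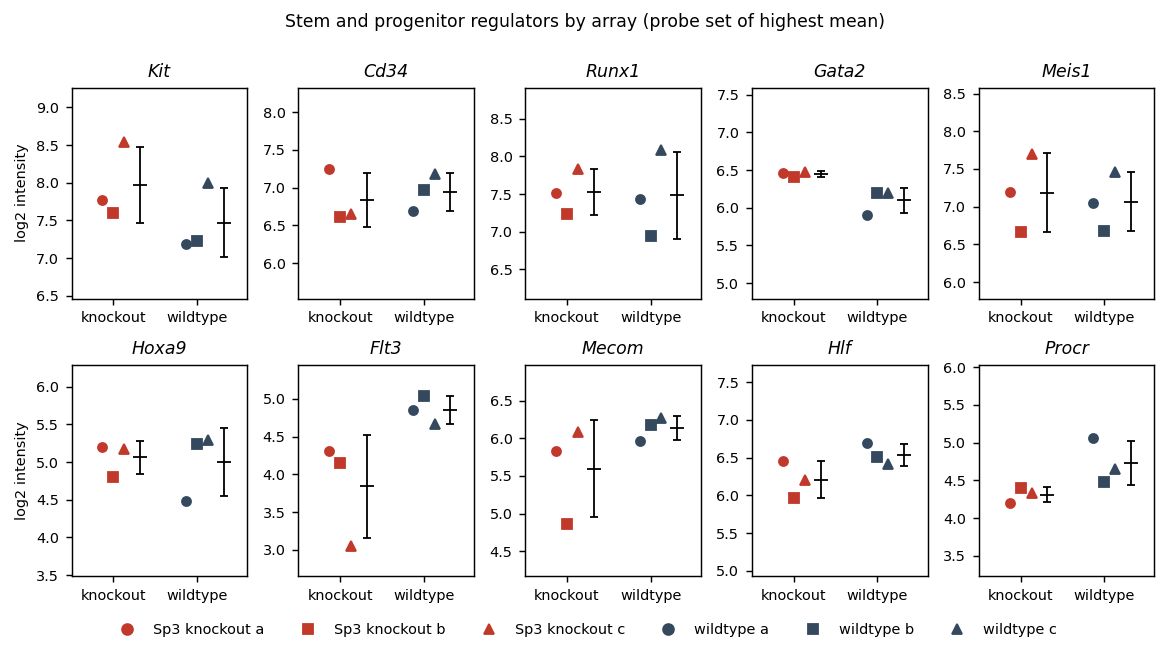
Log2 intensity of each regulator at its probe set of highest mean, with the Sp3 knockout arrays on the left and the wildtype arrays on the right of each panel. Symbols mark the letter of the array, bars the mean and SD of 3 arrays, and each vertical axis spans the same number of log2 units. The groups are apart for Gata2, Flt3 and Procr and overlap for the other 7 genes, where the groups were apart for 15.1% of all genes.

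Among the receptors, Flt3, a receptor tyrosine kinase of multipotent and early lymphoid progenitors, had the lowest unadjusted p of the list. Its single probe set (1419538_at) read 4.31, 4.16 and 3.05 in the knockout arrays, against 4.85, 5.04 and 4.66 in the wildtype arrays. The groups did not overlap, and knockout c lay well below the other knockout arrays. The log2 difference was -1.01 ± 0.44 (SE, n = 3 each), with a 95% interval from -1.97 to -0.06, an unadjusted p of 0.0391 and limma adjusted p = 0.68. Without knockout c it was -0.62, and with 16 intensity units added before log2 it was -0.54. It is a dim probe set, and the median residual SD at its level was 0.56.

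Kit, the receptor of stem cell factor on stem cells, early progenitors, mast cells and melanoblasts, did not pass and its groups overlapped. The brighter of its 2 probe sets (1452514_a_at) read 7.77, 7.59 and 8.54 in the knockout arrays, against 7.19, 7.23 and 8.0 in the wildtype arrays. Knockout c was the highest array and wildtype c the highest of its group. The log2 difference was 0.50 ± 0.28 (SE, n = 3 each), with a 95% interval from -0.14 to 1.13 and limma adjusted p = 0.742. It was 0.21 without knockout c and 0.76 without wildtype c. The dimmer probe set (1415900_a_at), at 5.69, 6.12 and 6.96 in the knockout arrays, against 5.94, 6.18 and 5.78 in the wildtype arrays, differed by 0.29 ± 0.29 and was again highest in knockout c, without which the difference was -0.061.

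The surface proteins Cd34 and Procr lay on the low side of wildtype without passing, and the sign of Cd34 turned with array weights. Cd34, a sialomucin of progenitors and endothelium, was at 7.24, 6.61 and 6.65 in the knockout arrays, against 6.68, 6.97 and 7.19 in the wildtype arrays. The wildtype range lay inside the knockout range, with knockout a the highest of the 6 arrays. The log2 difference was -0.11 ± 0.21 (SE, n = 3 each), with a 95% interval from -0.57 to 0.35 and limma adjusted p = 0.923. Procr, the endothelial protein C receptor that also marks stem cells, was at 4.20, 4.40 and 4.33 in the knockout arrays, against 5.06, 4.48 and 4.65 in the wildtype arrays. Its groups did not overlap, but wildtype b lay just above knockout b. The difference was -0.42 ± 0.36, with a 95% interval from -1.20 to 0.36 and limma adjusted p = 0.815, and it was -0.26 without wildtype a.

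**Figure D2:**
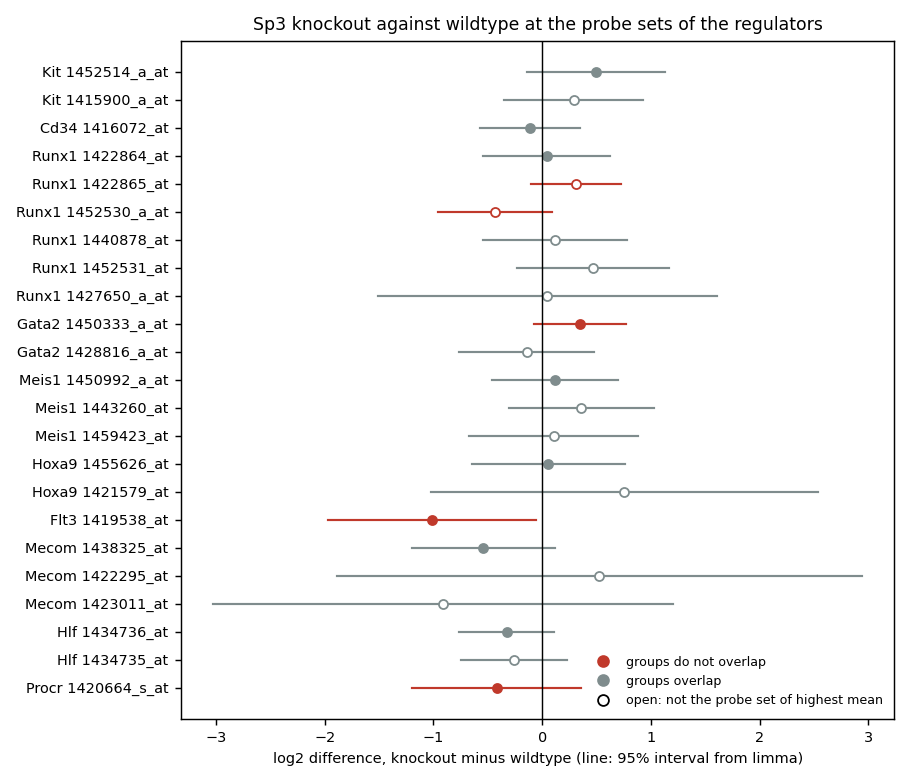
Log2 difference of Sp3 knockout minus wildtype at the 23 probe sets, with 95% intervals from limma. Red marks the 5 probe sets whose groups do not overlap, against 13% of all probe sets, and filled points mark the probe set of highest mean of each gene. The interval excludes 0 at the Flt3 probe set alone.

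Runx1, the DNA-binding subunit of core binding factor that is needed for stem cells to emerge from endothelium, had 6 probe sets, and they disagreed. The brightest was at 7.52, 7.23 and 7.83 in the knockout arrays, against 7.44, 6.94 and 8.09 in the wildtype arrays, a log2 difference of 0.04 ± 0.26 (SE, n = 3 each). Probe set 1422865_at was at 6.76, 6.39 and 6.53 in knockout against 6.25, 6.21 and 6.29 in wildtype, a difference of 0.31 ± 0.19. Probe set 1452530_a_at was at 5.71, 5.16 and 5.68 in knockout against 5.98, 5.93 and 5.94 in wildtype, a difference of -0.44 ± 0.24. Thus 1 probe set lay wholly above and 1 wholly below wildtype, with limma adjusted p = 0.748 and 0.733. The remaining 3 had overlapping groups and differences of 0.12, 0.47 and 0.05. The files do not place the probe sets within transcripts, and they were not assigned to the 2 starts shown above.

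Gata2, a zinc finger factor of stem cells, progenitors, mast cells and endothelium, also gave opposite signs. Its brighter probe set was at 6.46, 6.41 and 6.48 in the knockout arrays, against 5.91, 6.19 and 6.20 in the wildtype arrays. The knockout arrays lay close together and all above wildtype. The log2 difference was 0.35 ± 0.19 (SE, n = 3 each), with a 95% interval from -0.07 to 0.77 and limma adjusted p = 0.733. The other probe set, at 5.43, 5.34 and 4.80 in knockout against 5.13, 5.42 and 5.43 in wildtype, overlapped between the groups and differed by -0.14 ± 0.28. The mean of both differed by 0.10.

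Meis1 and Hoxa9 are homeodomain factors that bind DNA together and sustain self-renewal. Meis1 was at 7.20, 6.66 and 7.70 in the knockout arrays, against 7.05, 6.68 and 7.47 in the wildtype arrays at its brightest probe set. Both b arrays were low and both c arrays high, and the groups covered nearly the same range. The log2 difference was 0.12 ± 0.26 (SE, n = 3 each), with limma adjusted p = 0.937, and the other 2 probe sets differed by 0.36 and 0.11. The first of these differed by 0.09 without knockout c and by 0.67 without wildtype c. The brighter Hoxa9 probe set was at 5.20, 4.80 and 5.18 in knockout against 4.48, 5.24 and 5.29 in wildtype, a difference of 0.06 ± 0.32 with overlapping groups. The dimmer one ranged between 2.50 and 5.32 in knockout and between 2.03 and 4.70 in wildtype, and differed by 0.76 ± 0.82, with 0.05 without wildtype a and 1.6 without knockout a.

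Mecom, a zinc finger factor of long-term stem cells, and Hlf, a PAR bZIP factor of the same cells that liver cells also express, lay lower in knockout at their brightest probe sets without passing. For Mecom the levels were 5.83, 4.87 and 6.09 in the knockout arrays, against 5.96, 6.18 and 6.27 in the wildtype arrays. The log2 difference was -0.54 ± 0.30 (SE, n = 3 each), with limma adjusted p = 0.734. Knockout b was the lowest array, and the difference was -0.18 without it. The other 2 Mecom probe sets lie among the dimmer classes, where the median residual SD was 1.28 and 1.39, and their differences of 0.53 ± 1.11 and -0.91 ± 0.97 have intervals that span 0. Hlf was at 6.46, 5.96 and 6.20 in knockout against 6.69, 6.50 and 6.41 in wildtype, a difference of -0.33 ± 0.20 with limma adjusted p = 0.749. Its second probe set was at 5.84, 5.94 and 5.51 in knockout against 6.16, 5.97 and 5.93 in wildtype, a difference of -0.26 ± 0.22. In both, 1 knockout array reached just into the wildtype range. The first difference was -0.21 without knockout b and the second -0.13 without knockout c. Of 9 measured liver cell genes 8 were also lower in knockout, with a median of -0.15, and none passed. Of the 9, 2 had an unadjusted p under 0.05, against 8.71% of all genes. The summed intensity of the liver cell genes lay between 40240 and 42068 in knockout and between 40840 and 46987 in wildtype. Their part in the Hlf values was not tested.

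Some regulators varied more between arrays of the same label than probe sets of like level did. The residual SD of Kit was 0.48 at its brighter probe set, against a median of 0.17 among probe sets of its level class, 1 of 10 classes of equal size. That of Runx1 was 0.46 against 0.17 at its brightest probe set, and that of Meis1 was 0.46 and 0.53 against 0.22 at its 2 brightest. In all, 11 of the 23 probe sets had an SD above the median of their class. Of the 23, 6 were among the 10% of largest SD in their class, and these belonged to Kit, Runx1, Meis1 and Hoxa9. At the other end, Gata2 had an SD of 0.12 against 0.29 and Procr one of 0.22 against 0.56. The c array was the highest of its group in both groups for 5 of the 10 genes at the probe set of highest mean, namely Kit, Runx1, Gata2, Meis1 and Mecom, against 19.3% of all genes. Over all 23 probe sets this held for 6, against 20.8% of all probe sets, and over the 17 above the median level it held for 6, or 35.3%, against 27.7% of all probe sets there. Probe sets of 1 gene are not independent, and no test was made of these counts.

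**Figure D3:**
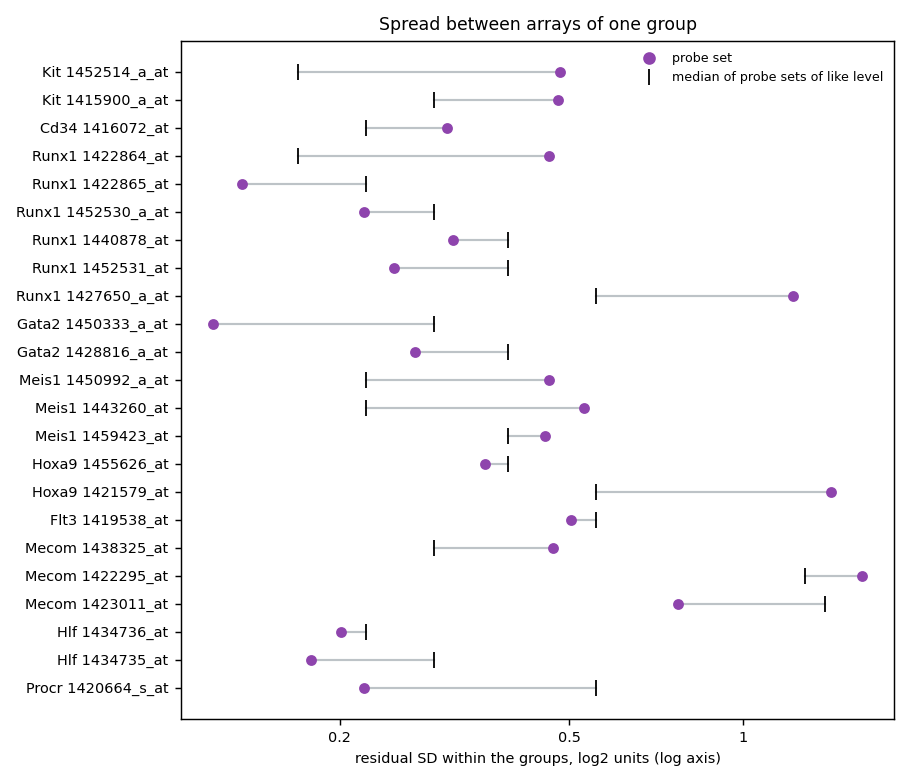
Residual SD within the groups at each of the 23 probe sets (purple points, log2 units on a log axis), with the median SD of all probe sets in the same class of level as a black tick. Points of Kit, Meis1 and the brightest Runx1 probe set lie right of their ticks, those of Gata2, Hlf and Procr left of them.

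Genes that work with these regulators were also measured, in 5 lists with 65 of 73 genes analysed here. None passed over all probe sets, and 4 had an unadjusted p under 0.05, 2 higher and 2 lower in knockout, which is 6.15% of the 65 against 8.71% of all genes at 1 probe set per gene. The groups did not overlap for 9, or 13.8%, against 15.1% of all genes, and the median log2 difference was 0.00107. In limma, 0.0495% of all genes passed at that probe set. The shares thus lay near those over all genes.

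Of 25 transcription factors other than the members, 12 were higher and 13 lower and the median difference was -0.03. Lmo2, a bridging protein of the stem cell complex of Tal1 and Gata factors, was at 10.64, 10.89 and 10.59 in the knockout arrays, against 10.95, 11.14 and 11.00 in wildtype, a difference of -0.32 ± 0.10 (SE, n = 3 each) with limma adjusted p = 0.541. Bmi1, a Polycomb protein needed for self-renewal, was at 8.59, 8.60 and 8.62 in knockout against 8.40, 8.06 and 8.31 in wildtype, a difference of 0.35 ± 0.13 with limma adjusted p = 0.64. In both genes the groups did not overlap. Tal1, the basic helix-loop-helix partner of Lmo2, averaged 10.09 ± 0.51 in knockout, against 10.43 ± 0.42 in wildtype (SD, n = 3 each).

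Ligands and receptors acting on progenitors had 0 of 12 measured genes at an unadjusted p under 0.05. Kitl, the stem cell factor that Kit binds, which was chosen after its values were seen, averaged 8.72 ± 0.19 in knockout, against 8.87 ± 0.14 in wildtype (SD, n = 3 each). Its log2 difference was -0.15 with limma adjusted p = 0.815. Dlk1, a surface protein of fetal liver progenitors, averaged 11.55 ± 0.17 and Epor, the erythropoietin receptor, 9.57 ± 0.24 in knockout, against 11.47 ± 0.03 and 9.67 ± 0.11 in wildtype. Among 15 signal proteins of Kit and Flt3, Gab2, an adaptor that recruits PI3 kinase and Shp2, had the smallest p of the 5 lists. It was at 7.72, 7.56 and 8.04 in the knockout arrays, against 6.93, 7.03 and 7.25 in wildtype, all knockout arrays above all wildtype arrays. The difference was 0.70 ± 0.17 (SE, n = 3 each), with limma adjusted p = 0.38, and 1 of its 3 probe sets was lower in knockout. The 2 brightest signal proteins were Ptpn11, the phosphatase Shp2, at 9.94 ± 0.07 in knockout, against 10.01 ± 0.09 in wildtype (SD, n = 3 each), and Stat3, a transcription factor activated by cytokines, at 9.34 ± 0.04 in knockout against 9.24 ± 0.02 in wildtype.

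Of 9 surface proteins used to sort stem and progenitor cells, 4 were higher and 5 lower. Slamf1, the CD150 antigen, was at 5.61, 5.49 and 5.15 in the knockout arrays, against 6.47, 6.55 and 5.40 in the wildtype arrays, a log2 difference of -0.72 ± 0.31 (SE, n = 3 each) with limma adjusted p = 0.68. Wildtype c lay within the knockout range, and 1 of 3 Slamf1 probe sets was lower in knockout. The brightest of the list were Itga2b, the CD41 chain, at 8.72 ± 0.06 in knockout, against 8.64 ± 0.10 in wildtype (SD, n = 3 each), and Esam, an adhesion molecule, at 7.53 ± 0.03 in knockout against 7.46 ± 0.27 in wildtype. The fetal programme had 4 of 4 genes on the high side with a median of 0.21 and 0 at an unadjusted p under 0.05. Hmga2, a chromatin protein of fetal stem cells, was at 11.26, 10.45 and 11.22 in the knockout arrays, against 10.65, 10.56 and 11.24 in the wildtype arrays. Igf2bp3, an RNA-binding protein, averaged 8.94 ± 0.10 in knockout, against 8.90 ± 0.12 in wildtype, a difference of 0.04 that turns below 0 with median centring. The Hmga2 groups overlapped, both c arrays were high, and the list median was 0.02 without knockout c and 0.42 without wildtype c.

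**Figure D4:**
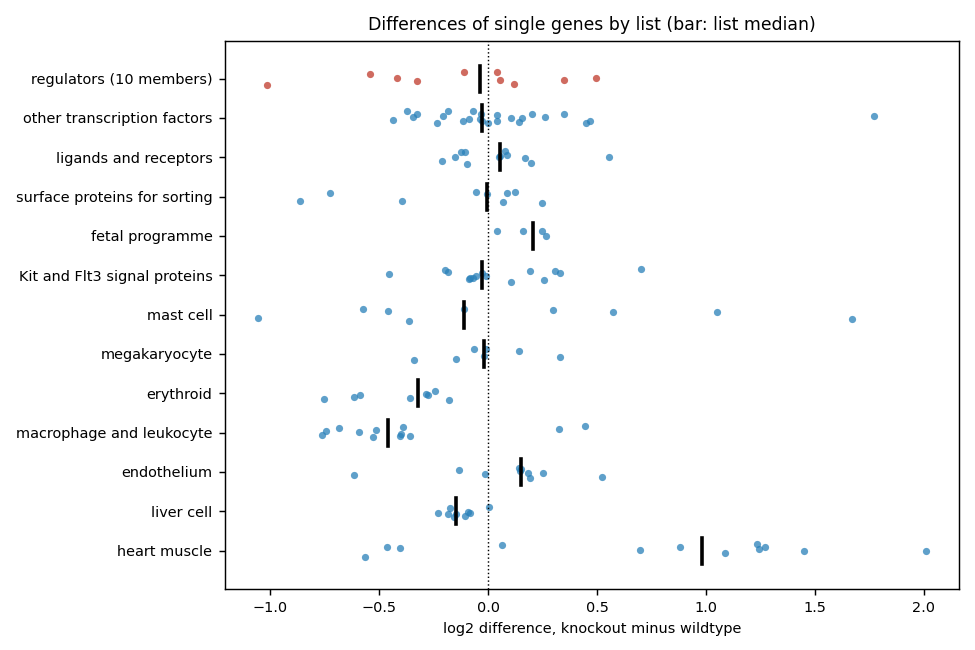
Log2 difference of Sp3 knockout minus wildtype for each gene at its probe set of highest mean, by list, with the median of each list as a bar. The regulators, in red, spread between -1.01 and 0.50 around a median of -0.04, and the median of the heart muscle list is 0.98.

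Markers of other cells that could carry these transcripts were read beside the regulators. All 9 mast cell genes were under the 50th percentile, with a summed intensity between 107.8 and 193.4 in knockout and between 105.6 and 181.8 in wildtype. The brightest were Cpa3, a mast cell carboxypeptidase, at 5.33 ± 0.52 in knockout, against 5.69 ± 0.16 in wildtype (SD, n = 3 each), and Hdc, histidine decarboxylase, at 5.46 ± 0.19 in knockout against 4.89 ± 0.77 in wildtype. All 6 melanoblast genes, 3 higher and 3 lower, and all 8 lymphoid genes, 2 higher and 6 lower, were below the 50th percentile as well. Megakaryocyte genes were bright, with Pf4, platelet factor 4, at 11.90 ± 0.08 and Ppbp, a platelet chemokine, at 10.84 ± 0.23 in knockout, against 11.91 ± 0.05 and 11.18 ± 0.13 in wildtype. Their summed intensity lay between 6653 and 7259 in knockout and between 7070 and 7558 in wildtype. Of 7 measured, 2 were higher and 5 lower, and 1 higher and 1 lower had an unadjusted p under 0.05, against 8.71% of all genes. The groups were apart for 1, against 15.1% of all genes, and none passed.

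Endothelial genes, shared in part by Cd34, Procr and Gata2, had a summed intensity between 1205 and 1359 in knockout and between 1238 and 1371 in wildtype, with 7 of 10 higher and a median difference of 0.15. Of the 10, 1 higher and 1 lower had an unadjusted p under 0.05, against 8.71% of all genes. The groups were apart for 1, against 15.1% of all genes, and none passed. Egfl7, a secreted endothelial protein with EGF-like domains, was at 8.41 ± 0.27 and Lyve1, a hyaluronan receptor of sinusoids and macrophages, at 7.69 ± 0.41 in knockout, against 8.22 ± 0.30 and 8.31 ± 0.27 in wildtype (SD, n = 3 each). Erythroid genes were lower in 8 of 8 measured, with a median of -0.32, and macrophage and leukocyte genes in 10 of 12, with a median of -0.46 and 6 at an unadjusted p under 0.05, against 8.71% of all genes. None of either list passed. For 5 of the 12 leukocyte genes all knockout arrays lay below all wildtype arrays, where the groups did not overlap for 15.1% of all genes. Summed erythroid intensity lay between 11326 and 21414 in knockout and between 17753 and 24654 in wildtype. Knockout c stood lowest in both lists, at -0.69 for erythroid and -0.71 for leukocyte genes relative to each gene's mean over 6 arrays. Among the 10 regulators at the probe set of highest mean, knockout c was the lowest array for 1, Flt3. It was the highest for 3, Kit, Gata2 and Meis1, and neither for the others. Summed leukocyte intensity was 2216 in knockout c and 3612 and 3678 in knockout a and b, against 3362 to 3900 in wildtype. Mpo, the brightest gene of that list, adds most to the sum in each array. It was higher in knockout, with a log2 difference of 0.32, so the sum does not show the lower level of most of the list. Elane was the only other gene of that list that was higher, by 0.44, and the groups overlapped for both. Heart muscle genes, though dim, were higher in 9 of 12, and none passed. Of the 12, 3 had an unadjusted p under 0.05, against 8.71% of all genes, and 3 were without overlap, against 15.1%. Their summed intensity lay between 774.8 and 822.8 in knockout and between 276.5 and 716.5 in wildtype. Mesenchyme genes were higher in 6 of 8, with a median of 0.31, and none passed. Of the 8, 2 had an unadjusted p under 0.05, against 8.71% of all genes. Their summed intensity lay between 4627 and 5515 in knockout and between 3853 and 4784 in wildtype. The part of these cells in the values of the regulators was not tested. The regulators' own list level was 0.06, -0.25 and 0.17 in the knockout arrays, against -0.07, 0.02 and 0.29 in the wildtype arrays, so the groups overlapped.

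**Figure D5:**
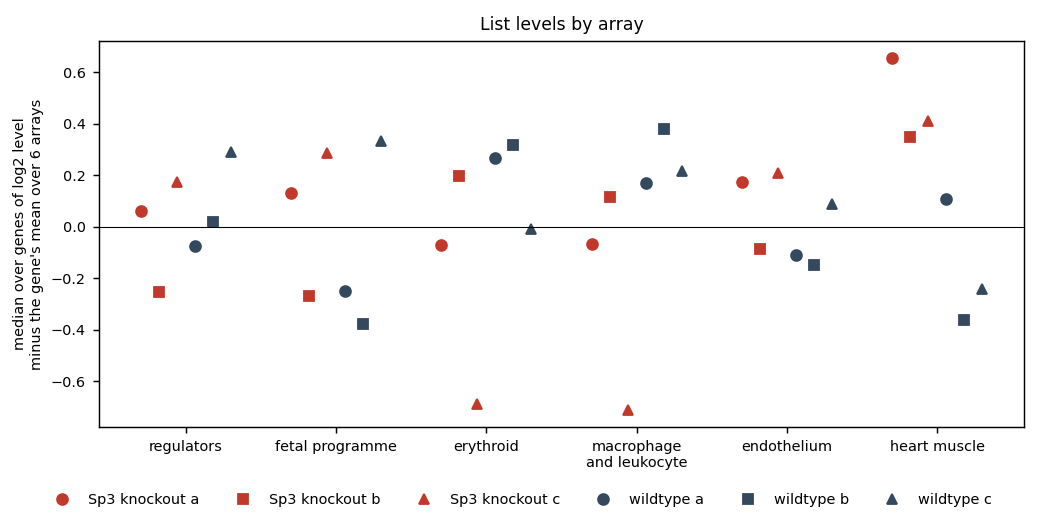
Median over the genes of a list of the log2 level minus each gene's mean over the 6 arrays, for the regulators and 5 other lists, with Sp3 knockout arrays in red left of the wildtype arrays. Knockout c lies at -0.69 in the erythroid and -0.71 in the leukocyte list and at 0.17 among the regulators.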

How the data were processed

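Gene expression was measured on 1 oligonucleotide array for each of 6 single hearts, 3 Sp3 knockout and 3 wildtype, grouped by sample title. The deposited table holds linear intensities. Per the submitters' processing notes GCOS and RMA were used, and what each did is not stated. Log2 was taken and no further normalization was applied. The planned test named log2 values and was kept after this step. Probe sets were named by the platform annotation checked against GRCm38.p6 gene identifiers, and 64 control probe sets were left out. For each gene the probe set with the highest mean stood for it. Of 73 other stem and progenitor genes, 8 had no probe set of their own here and were not analysed.

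The test was limma 3.58.1 under R 4.3.3 (lmFit, eBayes with trend and robust estimation) over all 45037 probe sets, since residual SD fell with intensity. The labels do not say that the hearts came from separate litters, so p-values reflect only how these arrays vary. With 3 arrays against 3 an exact permutation test cannot go below p = 0.1. No pair of arrays shared more than 1 identical value. Genes named were the 10 members and, in each other stem and progenitor list, those with an unadjusted p under 0.05 and the 2 brightest, with Kitl outside this rule. In cell type lists the 2 brightest were printed for mast cells, megakaryocytes and endothelium. The other lists were given by counts, with Mpo named for its weight in the leukocyte sum and Elane as the other gene of that list higher in knockout. The members, lists and fit were chosen with earlier results of these data known. Alternatives were other variance priors, median centring, quantile normalization, 16 units added, array weights, dim probe sets left out, the letter as a block, the mean over a gene's probe sets and each array left out.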

Additional observations from a re-analysis of the deposited data

How the results depend on the processing

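No probe set of the regulators passed in any of the 15 alternatives, and the smallest limma adjusted p was 0.125, for Kit with the letter as a replicate block. Of 326 values of single probe sets or genes under an alternative, 89 equal the reported one by construction, and of the other 237 the sign was kept in 210 and turned in 27. The letters a to c do not say that samples were paired, and deviations of same-lettered arrays correlated at 0.0095, 0.31 and 0.44 over 22518 probe sets. Those of arrays with different letters correlated at -0.38 to 0.13. Deviations were taken from the mean of each group, so these correlations are tied to each other and cannot decide whether samples were paired. With the replicate block limma called 258 probe sets and 11.1% of all had an unadjusted p under 0.05, 2 of the regulators had an unadjusted p under 0.05, and among the other genes 8 had one and 2, Nfe2 and Gab2, passed. Over all probe sets 0 were called with both the trend and robust estimation dropped, where 2699 had an unadjusted p under 0.05, and 25 with array weights, with 3 to 24 when 1 array was left out, 3 without knockout a, 7 without knockout c, 7 without wildtype a and 24 without wildtype c. The count of regulator probe sets with an unadjusted p under 0.05 was 0 with array weights, 0 without robust estimation alone, 0 without dim probe sets (which removes the Flt3 probe set), and 0 to 3 when 1 array was left out, against 9.15%, 7.23%, 9.06% and 5.04% to 10.2% of all probe sets. The count without overlap was 3 of the 17 kept without dim probe sets, against 15.4% of all probe sets kept. It was 5 to 11 of 23 when 1 array was left out, against 21.2% to 28.2% of all probe sets, where fewer arrays overlap less by construction. It was 10 without knockout a, against 21.6% of all probe sets, and 11 without wildtype c, against 28.2%. Among the other genes 2 had an unadjusted p under 0.05 with both dropped, where 5.99% of all probe sets had one, and 3 to 7 when 1 array was left out. Sp3 differed by -1.27 with limma adjusted p = 0.279 with both dropped and 0.0665 without knockout a, and by -1.37 to -1.20 when 1 array was left out.

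Signs changed as follows, and the cause was not tested. With median centring the brightest Runx1 probe set was at -0.036 and Hoxa9 at -0.020, with quantile normalization Hoxa9 was at -0.024, and with array weights Cd34 was at 0.041. Runx1 1427650_a_at was at -0.057 with quantile normalization, -0.029 with median centring and -0.0062 with array weights. Leaving out 1 array gave ranges of -0.31 to 0.0096 for Cd34, -0.23 to 0.34 for Runx1, -0.14 to 0.38 for Meis1 and -0.20 to 0.20 for Hoxa9. At dimmer probe sets the ranges were -0.26 to 0.052 for Gata2 1428816_a_at, -0.061 to 0.57 for Kit 1415900_a_at, -0.44 to 1.25 for Mecom 1422295_at, -0.11 to 0.45 for Meis1 1459423_at, -0.060 to 0.27 for Runx1 1440878_at and -0.63 to 0.96 for Runx1 1427650_a_at. Without a change of sign, Mecom 1423011_at ranged between -1.4 and -0.34 and Runx1 1452530_a_at between -0.53 and -0.26 when 1 array was left out. The median difference of the 10 regulators lay between -0.22 and 0.10.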
